A study of Mus musculus with 19 samples.

Results

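Deletion of Foxd3 in naive mouse embryonic stem cells (ESC) was examined on the 6 ESC samples among the 12 samples of the series, read on 11 of its 19 arrays. The samples were taken by their labels: ESC given tamoxifen or ethanol, with the numbers 1 to 3, from both rounds of hybridization. The tamoxifen group holds 3 samples on 6 arrays, and per the labels 1 µM tamoxifen for 36 h induced the knockout. The ethanol group holds 3 samples on 5 arrays, because ethanol sample 1 was hybridized in round 2 alone, and received the solvent as the control. Both groups grew in Knockout DMEM with serum, LIF and 2i, which is a pair of inhibitors of the kinases GSK3 and MEK. The labels name neither the Foxd3 allele nor the recombinase, and no sample used here received tamoxifen without the knockout. Effects of the drug, of recombination and of the loss of Foxd3 therefore cannot be told apart. Whether the samples of a group were separate cultures is not stated, so p-values measure only the spread among these samples, and that spread may be technical.

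Foxd3 is a transcription factor of the forkhead family that is expressed in the early epiblast and in ESC, and later in the neural crest. Mouse embryos without it lose the epiblast soon after implantation, and ESC without it do not keep up self-renewal. LIF with 2i holds ESC in the naive state, close to the epiblast before implantation, in which FGF signalling through MEK is blocked and Wnt signalling is raised by the block of GSK3. On leaving that state the cells pass through a formative stage, for which epiblast-like cells (EpiLC) are the usual culture model.

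The ESC label was checked on marker genes. Of 14 tested ESC markers, among them Pou5f1, Sox2, Nanog, Zfp42 and Esrrb, 14 were detected on every ESC array, where detection means a detection p-value under 0.01. Of 7 listed EpiLC markers 5 were tested. Otx2, Dnmt3b and Pou3f1 were detected on every ESC array, while Fgf5 and Zic2 were detected on none. The deleted gene could not be followed: its 1 probe passed the detection threshold on 0 of 19 arrays (the lowest value in ESC was 0.239), so its deletion is known from the labels alone. Raw intensity moved with the treatment. Median intensities in round 1 were 166 to 176 on tamoxifen arrays and 149 to 154 on ethanol arrays, and in round 2 they were 205.8 to 219.7 on tamoxifen arrays and 192.8 to 205.7 on ethanol arrays. Its part in the balance of rises and falls was not tested beyond the scalings given with the counts.

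Tamoxifen changed 856 of 9422 tested features (9.09%) at a Benjamini-Hochberg adjusted p under 0.05 in limma: 526 were higher (5.58%) and 330 were lower (3.5%) than in ethanol. In these background-corrected values rises were the larger changes. At least 2-fold rises were found for 111 features and at least 2-fold falls for 24, and the median log2 change was 0.70 among the 526 and -0.53 among the 330, beside -0.01 over all features. With the sample number as a block (below, the block), 2039 features were called (21.6%), 1135 higher and 904 lower, among them 853 of the 856. Scaling to equal medians called 794 higher and 120 lower. With only features detected on every ESC array tested, 425 were higher and 346 lower. Dim features weigh on the balance: a group mean lay under the lowest detected signal for 120 of the 526 rises and 33 of the 330 falls. The count was 523 without tamoxifen sample 1, 579 without tamoxifen sample 2, 537 without tamoxifen sample 3, 523 without ethanol sample 1, 579 without ethanol sample 2 and 525 without ethanol sample 3. In a principal component analysis of the 6 samples, the component that separated tamoxifen from ethanol carried 53.2% of the variance. The samples of either group did not overlap in 32.5% of all tested features, and in all 856 called ones. A lack of overlap in a called gene, where given below, therefore adds no support to its call.

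**Figure D1:**
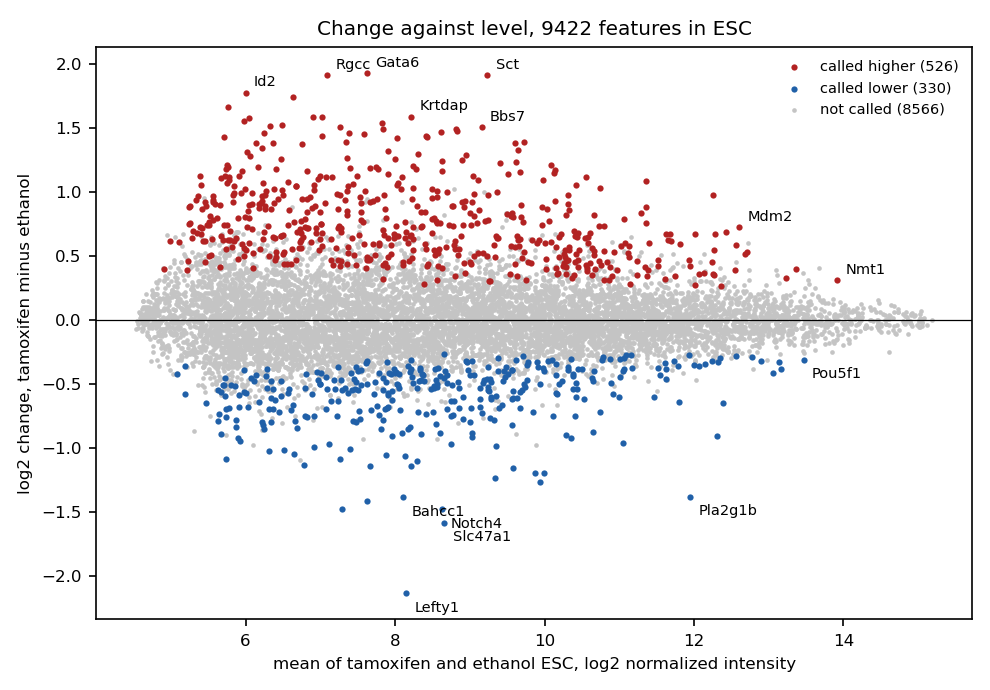
Log2 change with tamoxifen against the mean log2 normalized intensity of the 2 ESC groups, 1 point per feature. Of 9422 features 526 were called higher and 330 lower, and Lefty1 lies farthest below 0 at -2.14 while Gata6, Sct and Rgcc lie highest at 1.93, 1.92 and 1.91.

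Calls were spread over the whole range of levels. With the features split by mean level into 4 sets of equal size, 6.11% of the dimmest set were called higher and 2.46% lower, and in the set above it 7.01% and 4.71%. In the next set the shares were 5.99% and 4.84%. Among the brightest set, 3.23% were called higher and 1.99% lower, and the median absolute change there was 0.10 on the log2 scale, beside 0.20 in the dimmest set. Ccng1, a cyclin G induced by p53, was among the 4 most intense genes called higher, with a log2 change of 0.53 (SE 0.10, adjusted p = 0.00795). Pou5f1, the core pluripotency factor Oct4, was the most intense gene called lower. Its log2 normalized intensities were 13.34, 13.24 and 13.36 in tamoxifen and 13.61, 13.64 and 13.62 in ethanol. The groups were apart but close, lower by a log2 change of -0.31 with an SE of 0.08 (adjusted p = 0.0300). The call was lost without any one of the 6 samples (adjusted p = 0.0602 to 0.109) and on scaling to equal medians (0.0630). It was also lost in round 1 alone (0.150), in round 2 alone (0.0748) and with ESC arrays alone (0.060). The values above are of its brightest probe, and the mean of all its kept probes fell by only 0.18 (adjusted p = 0.176).

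Gata6, a transcription factor of the primitive endoderm, had the largest rise in the background-corrected values. Its log2 normalized intensities were 8.78, 8.07 and 8.92 in tamoxifen, against 6.71, 6.34 and 6.91 in ethanol. All 3 tamoxifen samples lay above all ethanol samples, by a mean of 3.82-fold (log2 change 1.93, SE 0.22, adjusted p = 0.000378). Without background correction the rise of Gata6 was 2.16-fold, and in the authors' normalized table it was 2.19-fold, in both cases less than that of Sct. Sizes shrank in this way for most named genes: of 88 that were called, the median size on the log2 scale was 1.13, against 0.69 without background correction and 0.68 in the authors' table, and 28 and 27 of them moved by over 1.5 times. Sct encodes the gut hormone secretin. It stood at 10.13, 10.27 and 10.18 in tamoxifen and at 8.07, 8.60 and 8.15 in ethanol, and the tamoxifen samples were almost level with each other (3.78-fold, SE 0.20 in log2, adjusted p = 0.000223). Rgcc, a regulator of cell cycle kinases that responds to complement, had 7.68, 8.16 and 8.29 in tamoxifen and 5.83, 6.30 and 6.26 in ethanol. It was detected on 6 of 6 tamoxifen arrays and 3 of 5 ethanol arrays, so the size of its fitted 3.77-fold rise leans on the background. Id2, an inhibitor of basic helix-loop-helix factors, was detected on 6 of 6 tamoxifen arrays and 0 of 5 ethanol arrays and rose at least 1.86-fold. Bounds of this kind, which hold for background-corrected values, set the mean of the brighter group against the other group's mean after each of its arrays was raised to the lowest signal detected there. Id2 rose 1.52-fold without background correction, less than its bound.

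Other large rises fell on genes of varied function. Bbs7, a subunit of the BBSome that carries membrane proteins to cilia, had 10.08, 9.80 and 9.87 in tamoxifen and 8.57, 8.31 and 8.34 in ethanol. The sets stood 2.84-fold apart (SE 0.13 in log2, adjusted p = 9.07e-05). Gpnmb, a transmembrane glycoprotein of lysosomes and melanosomes, had 8.32, 8.70 and 8.77 in tamoxifen and 6.83, 7.23 and 7.11 in ethanol (2.90-fold, SE 0.15 in log2). Fgfbp3, which binds and carries secreted FGFs, stood at 7.80, 8.0 and 7.64 in tamoxifen and at 6.39, 6.23 and 6.07 in ethanol, where 4 of 5 arrays detected it. Every tamoxifen sample of these genes again exceeded every ethanol sample. Sytl1, a synaptotagmin-like partner of Rab27 in secretion, was detected on 2 of 5 ethanol arrays and had a fitted log2 change of 1.74 (SE 0.18). The phospholipase C gene Plch2 rose at least 2.40-fold, the carboxypeptidase gene Cpz at least 1.51-fold and Msantd1, whose protein has a Myb-like domain, at least 1.79-fold, each from no detection on ethanol arrays. Gm648, a predicted gene, likewise rose at least 2.12-fold. Without background correction the rises were under these bounds, at 1.5-fold for Plch2, 1.43-fold for Cpz, 1.43-fold for Msantd1 and 1.45-fold for Gm648.

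Lefty1 fell the most. It encodes a secreted antagonist that blocks Nodal signalling and is itself induced by it. Its log2 normalized intensities were 7.10, 7.26 and 6.89 in tamoxifen and 9.30, 8.95 and 9.41 in ethanol, a 4.40-fold lower level (log2 change -2.14, SE 0.13, adjusted p = 3.03e-05). Lefty1 was 2.64-fold lower without background correction and 2.57-fold lower in the authors' table. Lefty2, its neighbour and close relative, had 8.87, 9.04 and 9.09 in tamoxifen and 10.21, 9.93 and 10.33 in ethanol. Both genes were thus lower in each tamoxifen sample than in any ethanol sample, with a fall of 1.16 on the log2 scale for Lefty2 (SE 0.12). Their sequences are near copies of each other in part, and signal shared between their probes was not tested.

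The further falls took in a transporter, a receptor, a chromatin protein and several secreted proteins. Slc47a1, a proton-coupled exporter of organic cations, had 8.0, 8.14 and 7.45 in tamoxifen and 9.85, 9.31 and 9.19 in ethanol. Tamoxifen sample 3 was the lowest, and the mean was 3.0-fold lower (SE 0.19 in log2, adjusted p = 0.000480). Notch4, a Notch receptor best known from blood vessels, had 7.69, 8.13 and 7.84 in tamoxifen and 9.52, 9.27 and 9.32 in ethanol (2.79-fold lower, adjusted p = 0.000137). Bahcc1, a chromatin reader of histone H3 trimethylated at the Polycomb lysine, had 7.26, 7.55 and 7.44 in tamoxifen and 8.80, 8.87 and 8.74 in ethanol. This was the tightest of the large falls, with an SE of 0.09 on a change of -1.38. Pla2g1b, a secreted phospholipase A2 of the pancreas, was the brightest of them, at 11.37, 11.07 and 11.32 in tamoxifen and 12.74, 12.49 and 12.68 in ethanol (2.61-fold lower).

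Pcolce, an enhancer of procollagen processing, had 8.41, 8.87 and 8.87 in tamoxifen and 9.84, 9.99 and 10.04 in ethanol, without overlap. The transcription factor Nfatc4, which responds to calcium and calcineurin, fell by 1.48 on the log2 scale (SE 0.22), and Pnma2, of a family derived from retrotransposon Gag genes, fell by 1.42 (SE 0.25). Tcf15, a helix-loop-helix factor that marks ESC primed for exit from naive pluripotency, had 7.20, 7.21 and 6.87 in tamoxifen and 8.43, 8.10 and 8.19 in ethanol. Gfpt2, an enzyme of hexosamine synthesis, fell by 1.14 (SE 0.11), and Sulf1, an extracellular heparan sulfate sulfatase, by 1.08 (SE 0.11). Lgi2, a secreted leucine-rich protein, fell by 1.10 (SE 0.14). These were moderate levels in both groups, detected on all 11 arrays. The stress response gene Nupr1 had 9.25, 9.80 and 8.79 in tamoxifen and 10.43, 10.90 and 10.11 in ethanol. Its call, at an adjusted p = 0.0223, was lost without tamoxifen sample 1 (0.0677) or 3 (0.0823) and without ethanol sample 1 (0.0606) or 2 (0.0825).

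**Figure D2:**
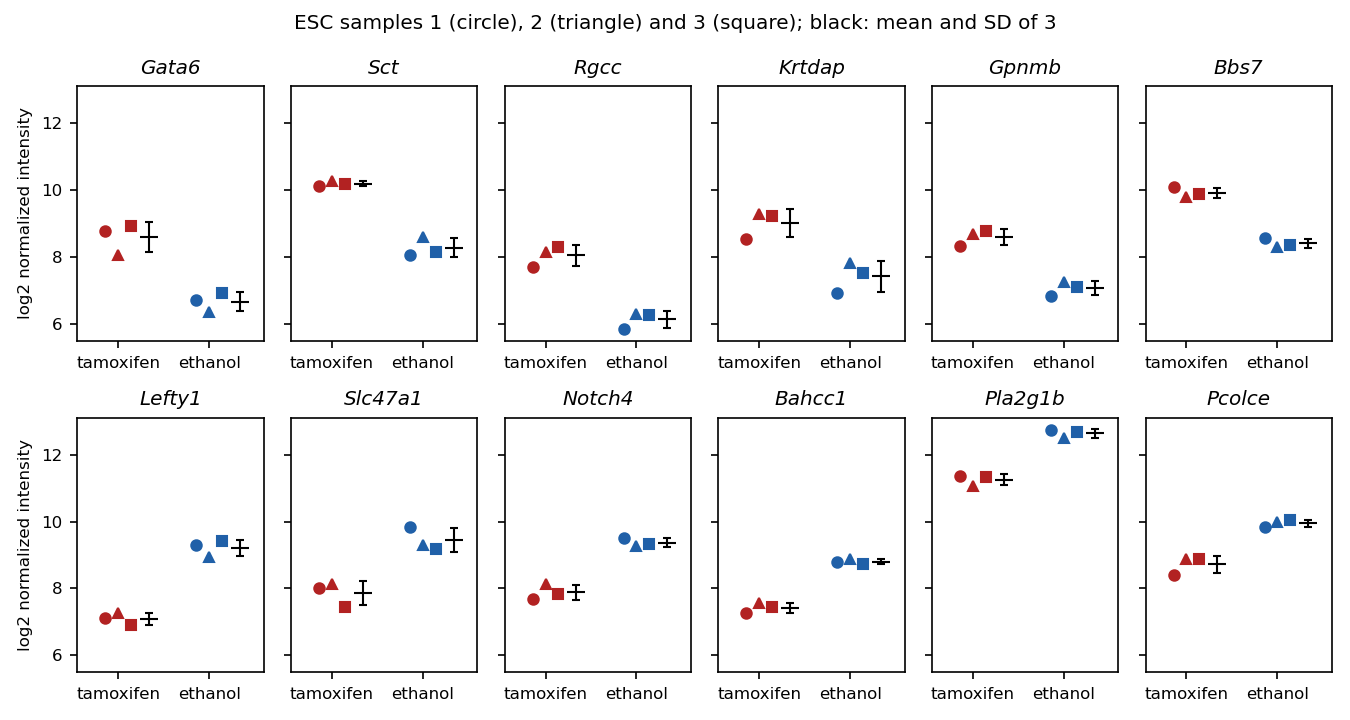
Log2 normalized intensity of 6 genes with large rises (upper row) and 6 with large falls (lower row) in the 3 tamoxifen and the 3 ethanol ESC samples, with the mean and SD of each group in black. In none of the 12 genes do the groups overlap, as for Sct at 10.13 to 10.27 in tamoxifen and 8.07 to 8.60 in ethanol. The genes were picked among called ones, and none of the 856 called features overlaps, beside 32.5% of all features without overlap. The lack of overlap here therefore adds no support.

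Some genes passed from no detection to detection. Of the genes called higher, 33 with a symbol were detected on 6 of 6 tamoxifen arrays and 0 of 5 ethanol arrays, and 2 called lower showed the reverse. Over all tested features, called or not, the numbers were 45 and 3. The bounds on the 33 rises ran from 1.08-fold to 2.40-fold and hold for background-corrected values only. Each gene named next changed by less than its bound without that correction. Rises were then 1.35-fold for Npy, 1.37-fold for Eef1a2, 1.43-fold for Slc7a9 and 1.33-fold for Cmtm5. Falls were 1.22-fold for Mapk8ip2 and 1.18-fold for Klk1b27. Ethanol arrays were the dimmer ones in each round, and the part of this in the imbalance was not tested. Npy, the neuropeptide Y gene, had 7.08, 6.92 and 6.97 in tamoxifen and 5.77, 5.99 and 5.67 in ethanol, at least 2.00-fold higher. Eef1a2, the elongation factor of muscle and neurons, had 7.13, 6.80 and 6.75 in tamoxifen and 5.92, 5.45 and 5.26 in ethanol, at least 1.86-fold higher. The cystine transporter gene Slc7a9 rose at least 1.98-fold and Cmtm5, which encodes a membrane protein with a MARVEL domain, at least 1.63-fold. In the other direction, Mapk8ip2, a scaffold of the JNK kinases, was at least 1.48-fold lower and the kallikrein gene Klk1b27 at least 1.35-fold lower. Klk1b27 belongs to a family of near-identical genes, so its probe's target is uncertain.

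Among signalling pathways, 23.5% of the tested Nodal and TGF-beta genes were called, 15% of the Notch genes and 13.6% of the FGF-ERK genes. The shares were 15.8% in the Wnt list and 5.88% in the BMP and Id list, beside 9.09% of all features. The lists are small, and these shares were not tested against that of all features. Of 17 Nodal and TGF-beta pathway genes tested, 0 rose and 4 fell, but the list's median change was 0.07, close to -0.01 over all features. The falls were those of the antagonists Lefty1, Lefty2 and Fst and of the ligand Gdf3. Nodal itself did not pass the test and had 10.51, 10.53 and 10.40 in tamoxifen and 10.35, 10.39 and 10.34 in ethanol (adjusted p = 0.352). Gdf3, a ligand that acts with Nodal, fell by 0.30 (SE 0.08), and this call was lost without any one sample (adjusted p = 0.0981 to 0.127).

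Of 20 Notch pathway genes, 1 rose and 2 fell (3 and 4 with the block), with a median of 0.00. The receptors parted: Notch3 had 7.87, 7.75 and 7.69 in tamoxifen and 6.70, 6.98 and 7.16 in ethanol, a rise of 0.82 (SE 0.13, adjusted p = 0.00259), whereas Notch4 was lower as given above. Dtx3, a ubiquitin ligase of the Deltex family, fell by 0.78 (SE 0.11). The Notch target Hes1 did not pass the test, at 9.69, 9.61 and 9.90 in tamoxifen and 9.91, 10.05 and 10.13 in ethanol (adjusted p = 0.439), but was called lower with the sample number as a block (0.0314).

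In the FGF-ERK list, 2 of 22 rose and 1 fell (5 and 6 with the block), and 0 rose without tamoxifen sample 2 or ethanol sample 3. Ccnd1, cyclin D1, fell to 12.05, 12.10 and 12.04 in tamoxifen, against 12.75, 12.70 and 12.67 in ethanol (log2 change -0.65, SE 0.07, adjusted p = 0.000332). Rb1, the retinoblastoma protein that cyclin D kinases inactivate, had 9.22, 9.27 and 9.28 in tamoxifen and 8.01, 8.15 and 7.87 in ethanol (2.37-fold, SE 0.17 in log2). With Rgcc, these were the 2 rises and 1 fall among 11 tested genes of the cyclin D and CDK inhibitor list. That is 27.3% called, beside 9.09% of all features. The wider cell cycle list had 0 rises and 1 fall among 18 tested genes (0 and 2 with the block), 5.56% called. In the Wnt list 1 of 19 rose and 2 fell (2 and 4 with the block), and the secreted Wnt antagonist gene Sfrp1 had 9.51, 10.13 and 10.02 in tamoxifen and 10.69, 10.92 and 10.83 in ethanol (log2 change -0.93, SE 0.16). In the BMP and Id list Id2 rose and 0 of the other 16 passed the test (3 rose and 1 fell with the block).

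Of 23 tested p53 targets, 9 rose, 0 fell and 14 were not called (12 higher and 1 lower with the block). The share called was 39.1%, beside 9.09% of all features (5.58% higher and 3.5% lower), a difference that was not tested. The median log2 change was 0.31, and 8 rose without any one sample. Pmaip1, the pro-apoptotic factor Noxa, had 7.90, 7.62 and 7.57 in tamoxifen and 6.23, 6.17 and 5.94 in ethanol, where 3 of 5 arrays detected it. The death receptor gene Fas had 6.82, 6.56 and 6.91 in tamoxifen and 5.0, 5.43 and 5.19 in ethanol, at least 1.71-fold higher. Its rise was 1.41-fold without background correction. Mdm2, the ubiquitin ligase that restrains p53, had 12.96, 12.98 and 12.95 in tamoxifen and 12.20, 12.29 and 12.23 in ethanol. The replicates of Mdm2 were nearly level within each group, 1.65-fold apart (SE 0.09 in log2, adjusted p = 0.000643). Ephx1, an epoxide hydrolase, rose by 1.16 (SE 0.11) and Plk2, a polo-like kinase, by 1.24 (SE 0.18). In the separate list of DNA damage checkpoint and repair genes, 1 of 21 rose (4 with the block), a share of 4.76%. It was Gadd45a, a growth arrest gene, by 0.87 (SE 0.18). The apoptosis list was divided, with 2 of 20 higher and 2 lower (4 and 3 with the block), 20% called. Among them was a rise of Bik, a pro-apoptotic factor detected on 1 of 5 ethanol arrays. That these targets are p53 targets is background, and p53 activity was not measured.

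A few cells in an ESC culture pass for a time into a state like that of the early cleavage embryo, and most tested marker genes of this two-cell-like state rose. Of 26 listed genes 12 were tested. The rest had no probe that passed the detection filter, being either detected on too few arrays or without a probe. Which of these held was not looked up for this list. The counts that follow therefore say nothing of the untested markers. Of the 12, 9 rose and 0 fell (12 and 0 with the block), beside 5.58% of all features called higher. The median log2 change of the 12 was 1.03, and 7 or 8 rose without any one sample. It was 0.604 without background correction and 0.636 in the authors' normalized table, with 9 called higher in each. Tmem92 had 10.20, 10.04 and 10.02 in tamoxifen and 8.77, 9.12 and 8.95 in ethanol (2.20-fold, SE 0.15 in log2). Ddit4l, an inhibitor of the kinase mTOR, had 10.53, 10.57 and 10.48 in tamoxifen and 9.58, 9.44 and 9.27 in ethanol (2.14-fold, SE 0.09 in log2). Tdpoz4, of a multicopy family with TRAF and POZ domains, had 8.18, 8.15 and 7.72 in tamoxifen and 6.44, 6.45 and 6.63 in ethanol. Members of the Tdpoz, Tcstv and PRAME-like families have near-identical copies, so which copy a probe reads is uncertain. In bulk RNA, more cells in such a state and more RNA per cell cannot be told apart.

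Lists that mark other cell types were read for the same reason. Of 10 tested primitive endoderm genes 2 rose, Gata6 and Dab2, and 1 fell (5 and 2 with the block). The share called was 30%, beside 9.09% of all features. Dab2, a clathrin adaptor, had 10.18, 10.51 and 10.59 in tamoxifen and 8.81, 9.34 and 8.96 in ethanol (2.62-fold, SE 0.17 in log2, adjusted p = 0.000641). The summed linear intensity of the 10 genes was 10455 to 12466 in tamoxifen and 8485 to 9520 in ethanol. The defining genes Gata4, Sox17, Sox7, Pdgfra and Foxa2 were detected on 0 of 11 ESC arrays, as were Lamb1, Ttr and Afp. Of 14 trophoblast genes tested, 3 rose and 0 fell (5 and 1 with the block), 21.4% called, with a median log2 change of 0.145. Their summed intensities were 11199 to 11833 in tamoxifen and 7844 to 8499 in ethanol. The bright gene Tfap2c, given below with the germline list, is also in this list. Its own rise was about as large as the gap between these sums, so they do not show a rise across the list. Eomes, Elf5 and Hand1 were detected on 0 of 11 ESC arrays. Gata2, a zinc finger factor of trophoblast and blood, had 8.19, 7.79 and 8.04 in tamoxifen and 7.29, 6.85 and 7.14 in ethanol (1.89-fold, SE 0.17 in log2).

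In the germline list 4 of 11 rose and 1 fell (7 and 1 with the block), 45.5% called, beside 9.09% of all features. There were 2 rises without any one sample other than ethanol sample 2 and 4 without that. Tfap2c, the AP-2 gamma factor of trophoblast and germ cells, had 12.69, 12.70 and 12.84 in tamoxifen and 11.61, 11.86 and 11.84 in ethanol (1.97-fold). Nanos3, which protects migrating primordial germ cells from death, had 9.57, 9.20 and 9.79 in tamoxifen and 8.13, 7.98 and 8.70 in ethanol (2.38-fold, SE 0.22 in log2). Dnd1, which keeps microRNAs off transcripts in germ cells, went the other way, with 9.14, 9.47 and 9.37 in tamoxifen and 9.91, 9.99 and 9.91 in ethanol (1.53-fold lower). The germline list thus did not move as 1 block. In the neuroectoderm list 0 of 11 rose and 2 fell (18.2% called). There were 0 falls without tamoxifen sample 3, ethanol sample 1 or ethanol sample 2. In the mesoderm and definitive endoderm list 0 of 5 changed, and in the neural crest list 0 of 6 did (1 rise and 2 falls, and 1 fall, with the block).

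The naive pluripotency list was divided, with 2 of 16 higher and 2 lower (3 and 4 with the block) and a median of -0.05. The share called was 25%, and 40% in the formative and primed list below, beside 9.09% of all features. Gbx2, a homeobox factor that supports ESC self-renewal, averaged 10.02 ± 0.02 in tamoxifen and 10.78 ± 0.10 in ethanol (SD, 3 samples each), and the groups did not overlap (log2 change -0.75, SE 0.13, adjusted p = 0.00411). Tcl1, a coactivator of the kinase Akt, had 9.76, 9.85 and 9.91 in tamoxifen and 10.83, 10.55 and 10.83 in ethanol (log2 change -0.90, SE 0.17). Among 15 genes of the formative and primed epiblast, 3 were called higher and 3 lower, but 6 of the 15 were detected on no ESC array. These counts depended on the processing: 1 was higher and 1 lower without background correction, and likewise in the authors' normalized values. Scaling to equal medians gave 3 higher and 1 lower. With a sample left out, 1 to 2 were called in each direction. In the naive list the rises dropped to 1 or 0, with 0 without ethanol sample 1, and the 2 falls held.

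Housekeeping families held few calls. Of 57 cytosolic ribosomal proteins 0 were called (0 higher and 1 lower with the block), and of 71 mitochondrial ones 2 were lower (1 higher and 6 lower with the block). Among 76 respiratory chain and ATP synthase genes 1 was lower (2 higher and 2 lower with the block), and among 42 proteasome subunits and chaperones 1 was lower (3 higher and 4 lower with the block). The Nrf2 oxidative stress list had 0 of 18 called (3 higher and 2 lower with the block). The interferon list had 0 of 14 called (1 lower with the block), but 6 of the 14 were detected on no ESC array. The oestrogen and xenobiotic list had 0 of 6, with 22 genes listed, too few tested to read a response to the drug from. Of 169 solute carriers 17 rose and 8 fell, 14.8% beside 9.09% of all features (32 and 22 with the block), a difference that was not tested. Leaving out a sample gave 8 to 11 rises, fewest without tamoxifen sample 3, and 5 to 8 falls, fewest without ethanol sample 2 or 3. The arginine transporter gene Slc7a3 had 11.87, 12.05 and 11.63 in tamoxifen and 12.90, 12.76 and 12.61 in ethanol (1.88-fold lower). Slc34a3, a phosphate transporter, rose by 1.06 (SE 0.14).

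In the cadherin and junction list 4 of 16 rose and 1 fell, 31.2% called, beside 9.09% of all features. There were 2 to 3 rises when a sample was left out, fewest without tamoxifen sample 1 or ethanol sample 1. F11r, the junctional adhesion molecule A, had 8.26, 8.27 and 8.37 in tamoxifen and 7.28, 7.44 and 7.58 in ethanol (1.82-fold, SE 0.12 in log2). Gja1, the gap junction protein connexin 43, had 13.07, 12.78 and 12.98 in tamoxifen and 12.58, 12.30 and 12.41 in ethanol (1.43-fold). Clustered homeobox genes had 0 of 16 higher and 4 lower (25% called). The lower count was 2 on scaling to equal medians, without background correction or in the authors' normalized values. With 1 sample left out the lower count was 2 to 3. It was 2 without tamoxifen sample 1, ethanol sample 1 or ethanol sample 2. Hoxd4, a body axis factor, was detected on 0 of 6 tamoxifen arrays and 3 of 5 ethanol arrays and was at least 1.28-fold lower. Its fall was 1.2-fold without background correction. Of 178 zinc finger genes with a Zfp symbol 4 were higher and 6 lower, 5.62% (11 and 17 with the block), which was not tested against the 9.09% of all features. Zfp750, a factor of epidermal differentiation, rose by 1.01 (SE 0.15).

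**Figure D3:**
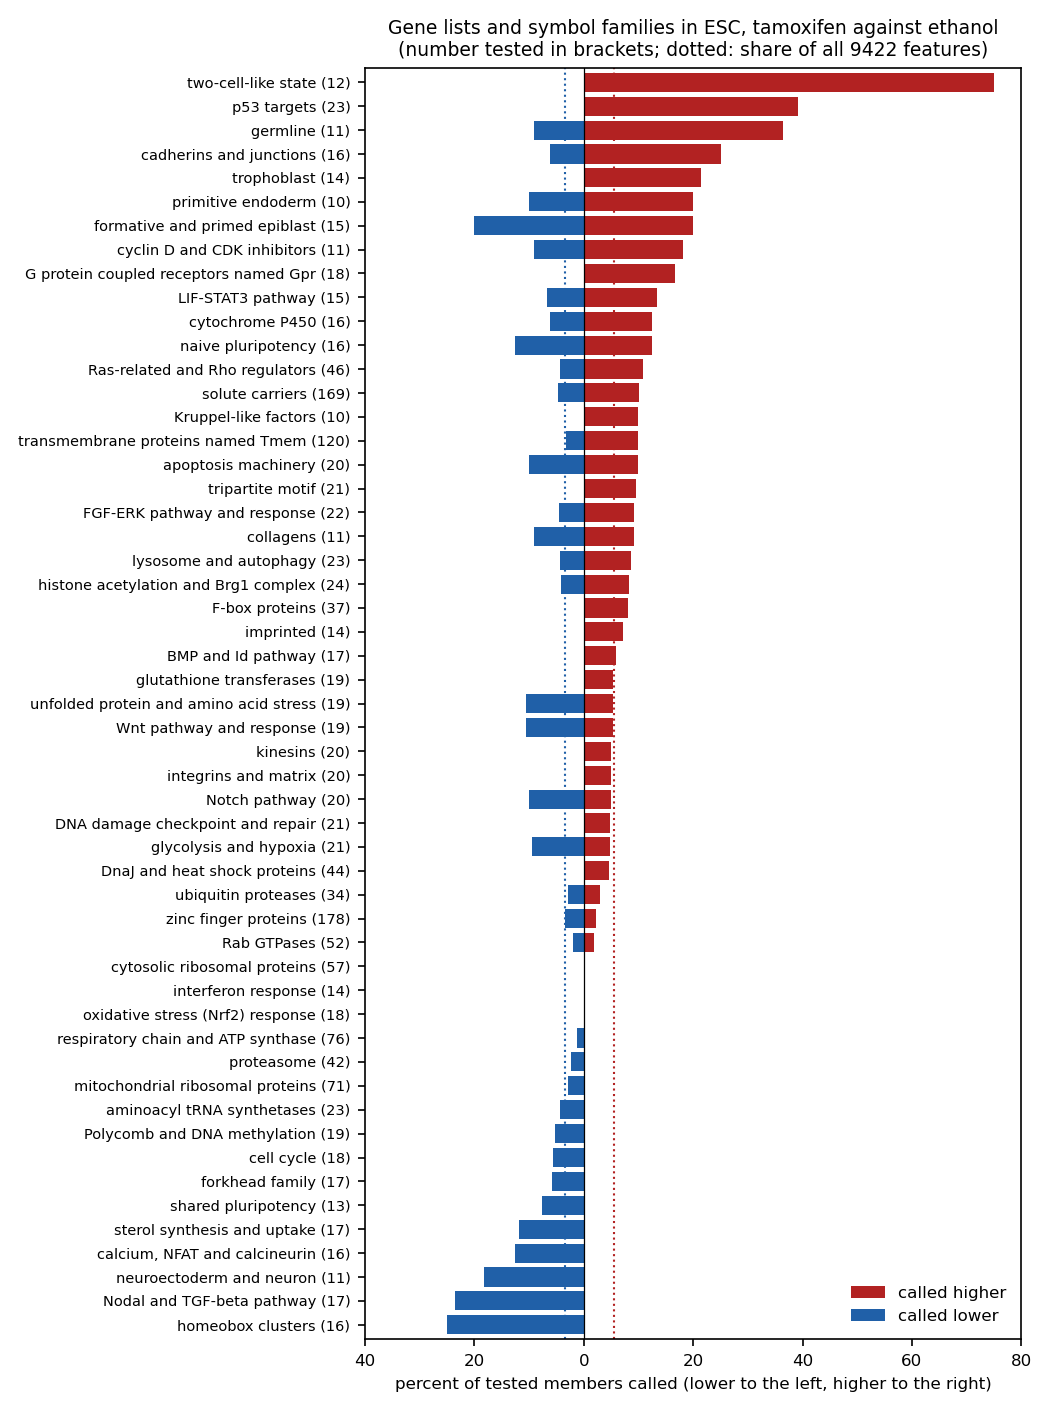
Share of tested members called higher (red, right) or lower (blue, left) with tamoxifen in each gene list and symbol family with at least 10 tested members, the dotted lines marking the shares of all features, 5.58% and 3.5%. Genes of the two-cell-like state (9 of 12 higher) and p53 targets (9 of 23) stand at the top, and clustered homeobox genes (4 of 16 lower) and the Nodal and TGF-beta list (4 of 17 lower) at the bottom.

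The position of called genes along the chromosomes was counted without a test, and near-identical neighbours whose probes may read each other are included. Of 494 placed genes called higher, 65 (13.2%) had an adjacent tested gene called higher, close to the 10.7% of the genes not called higher. Of 301 called lower, 37 (12.3%) had an adjacent tested gene called lower, beside 6.53% of the rest. Blocks of 3 or more adjacent tested genes called the same way numbered 6. The longest held AF067063, Tcstv1, Gm20767, AF067061, BC147527 and Tcstv3, with log2 changes of 1.02 to 1.27. Tcstv3 is a two-cell-like state gene at 11.29, 11.38 and 11.10 in tamoxifen and 10.09, 10.42 and 10.15 in ethanol, and its neighbours include close copies. A further pair of blocks held PRAME-like genes: Gm13043, Pramel20 and Pramel31, and Sowahb, Pramel37, Pramel39 and AA792892. Pramel39 had 9.80, 9.41 and 9.49 in tamoxifen and 8.01, 8.13 and 8.12 in ethanol (2.79-fold). Within these blocks the call of Pramel20 was lost without tamoxifen sample 1 (adjusted p = 0.0542), and that of AA792892 without tamoxifen sample 1 or 2 and ethanol sample 1 or 3 (the highest adjusted p = 0.0766). The block of lower genes held Plekha4, Hsd17b14 and Bcat2, of which Hsd17b14, a steroid dehydrogenase, fell by 1.06 (SE 0.15). The call of Plekha4 was lost without tamoxifen sample 3 (adjusted p = 0.0513) or ethanol sample 1 (0.0511).

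**Figure D4:**
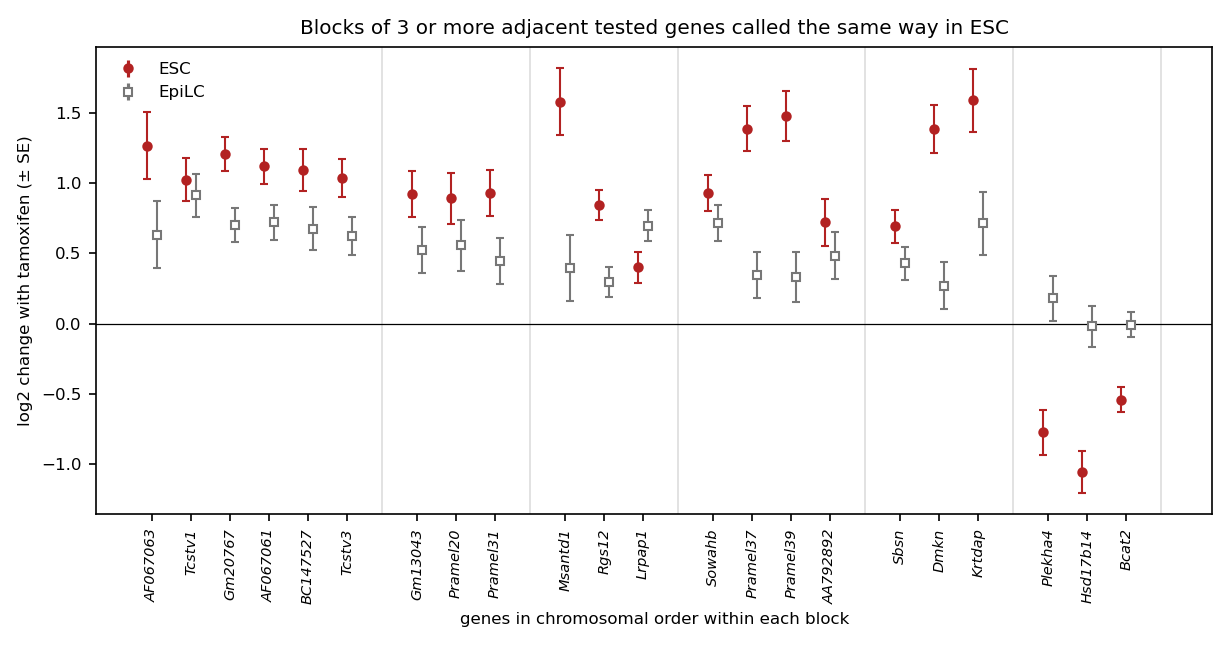
Log2 change with tamoxifen, with its SE, of the genes in the 6 blocks, in ESC (filled red circles) and EpiLC (open grey squares). The 5 blocks of higher genes span 0.40 to 1.59 in ESC, and in the block at the right Plekha4, Hsd17b14 and Bcat2 lie at -0.77, -1.06 and -0.54 in ESC but near 0 or above it in EpiLC (0.18, -0.02 and -0.01).

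Another block held Sbsn, Dmkn and Krtdap, which lie side by side on chromosome 7 and encode suprabasin, dermokine and keratinocyte differentiation-associated protein, secreted proteins of the epidermis. Their promoters are shown because the genes rose together. They are the RefSeq windows of the GRCm38.p6 build, from 250 bases before to 50 bases after the annotated start, on the plus strand, at chr7:30751221-30751520 for Sbsn, chr7:30763506-30763805 and chr7:30776155-30776454 for separate starts of Dmkn, and chr7:30787655-30787954 for Krtdap. Capitals mark the letters TGAGTCA, the binding motif of AP-1, a dimer of leucine zipper proteins.
Sbsn: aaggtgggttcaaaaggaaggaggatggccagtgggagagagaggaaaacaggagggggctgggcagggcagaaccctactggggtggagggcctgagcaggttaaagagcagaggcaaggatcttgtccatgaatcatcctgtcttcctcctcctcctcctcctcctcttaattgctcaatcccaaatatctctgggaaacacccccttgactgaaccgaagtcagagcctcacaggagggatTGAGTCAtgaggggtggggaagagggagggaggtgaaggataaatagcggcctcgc
Dmkn, upstream start: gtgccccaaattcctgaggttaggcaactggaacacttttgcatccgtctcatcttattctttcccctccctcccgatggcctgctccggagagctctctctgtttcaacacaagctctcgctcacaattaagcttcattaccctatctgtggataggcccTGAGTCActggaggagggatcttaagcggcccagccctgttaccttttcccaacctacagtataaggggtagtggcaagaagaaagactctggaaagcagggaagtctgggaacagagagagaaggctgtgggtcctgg
Dmkn, downstream start: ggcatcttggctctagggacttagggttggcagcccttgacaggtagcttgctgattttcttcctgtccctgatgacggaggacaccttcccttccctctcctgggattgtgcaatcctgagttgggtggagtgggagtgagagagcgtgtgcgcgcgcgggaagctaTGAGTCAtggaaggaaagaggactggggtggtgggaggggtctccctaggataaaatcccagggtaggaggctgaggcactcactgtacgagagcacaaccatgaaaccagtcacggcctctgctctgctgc
Krtdap: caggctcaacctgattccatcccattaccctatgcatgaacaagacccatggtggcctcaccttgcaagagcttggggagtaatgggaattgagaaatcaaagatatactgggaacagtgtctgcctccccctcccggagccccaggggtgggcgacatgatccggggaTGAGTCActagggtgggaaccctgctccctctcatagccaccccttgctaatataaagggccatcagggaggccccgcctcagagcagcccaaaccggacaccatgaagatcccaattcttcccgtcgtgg
Each window holds 1 copy, 6 bases before the start in Sbsn, 89 and 82 bases before the starts of Dmkn and 81 bases before that of Krtdap. The letters TGAGTCA or their reverse complement TGACTCA occur in 5.2% of 32851 windows of this length. The motif was searched after the windows had been read. Among tested genes with a window it was found for 24 of 392 called higher (6.12%), 8 of 232 called lower (3.45%) and 287 of 6452 not called (4.45%). The forkhead motif TGTTTAC or its reverse complement GTAAACA was found for 15 of the 392 (3.83%), 7 of the 232 (3.02%) and 191 of the 6452 (2.96%), shares close to each other, and in 0 of these epidermal windows. A match is a string of letters and shows no binding.

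Krtdap was the brightest of the neighbours, with 8.54, 9.29 and 9.21 in tamoxifen and 6.91, 7.83 and 7.53 in ethanol. Sample 1 was the lowest of either group, and the means stood 3.01-fold apart (SE 0.22 in log2, adjusted p = 0.00124). Dmkn had 6.86, 6.92 and 6.73 in tamoxifen and 5.16, 5.61 and 5.58 in ethanol, and rose at least 1.80-fold from no detection on ethanol arrays. Its rise was 1.37-fold without background correction. Sbsn was dim throughout, at 5.64, 5.48 and 5.80 in tamoxifen and 4.79, 4.91 and 5.14 in ethanol. It was detected on 3 of 6 tamoxifen arrays and 0 of 5 ethanol arrays, and no fold is given although the fit called it (adjusted p = 0.00363). The probes do not tell which Dmkn start was used.

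EpiLC given tamoxifen or ethanol, 3 samples each, allow a test of whether these changes differed from those of a later state. They share no samples with the ESC, and the EpiLC ethanol samples were hybridized in round 1 alone. In ESC 9.09% of features were called and in EpiLC 6.91%, of all 9422 features 447 higher and 204 lower. Of the 526 called higher in ESC 132 (25.1%) were also called higher in EpiLC, where they make up 29.5% of the rises. Of the 330 called lower 36 (10.9%) were also called lower in EpiLC, 17.6% of the falls there. Called or not in EpiLC, the change there had the same sign for 443 of the 526 and 244 of the 330. These overlaps were not tested. The difference between the ESC change and the EpiLC change was itself called for 244 features (2.59%), and for 137 of the 856 (16%), 80 of them higher in ESC and 57 lower. The count of 244 was 119 without tamoxifen sample 1, 153 without tamoxifen sample 2, 150 without tamoxifen sample 3, 134 without ethanol sample 1, 159 without ethanol sample 2 and 109 without ethanol sample 3 of ESC, and 1147 with the block.

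Of the 16 largest rises in ESC, which were picked for a large ESC change, 11 had a called difference from EpiLC, and Sct, Sytl1, Cpz, Krtdap and Msantd1 did not. Gata6 changed by 1.93 in ESC and 0.08 in EpiLC (adjusted p of the difference 0.0125). Rgcc changed by 1.91 in ESC and 0.27 in EpiLC (0.00646), and Pmaip1 by 1.59 in ESC and 0.13 in EpiLC (0.0118). Fgfbp3 changed by 1.58 in ESC and -0.26 in EpiLC (0.00335). Slit2, a secreted guidance cue, changed by 1.02 in ESC and -0.25 in EpiLC (0.00335), and Hsd17b1, a steroid dehydrogenase, by 1.32 and -0.04 (0.00487). Among the falls, Lefty1 changed by -2.14 in ESC and -0.40 in EpiLC (0.00173), and Bahcc1 by -1.38 and -0.39 (0.00470). Pcolce changed by -1.24 in ESC and 0.52 in EpiLC (0.00335), Ccnd1 by -0.65 and -0.09 (0.0181), and Notch3 by 0.82 and -0.06 (0.0301).

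Called changes of opposite sign numbered 12, and opposite calls imply a large difference, so its test adds nothing for these. Dnd1 fell by 0.61 (SE 0.11) in ESC and had a log2 change of 1.39 (SE 0.11) in EpiLC, the smallest p of any difference among genes called in ESC (adjusted p = 0.000284). Tgm1, the transglutaminase of keratinocytes, changed by -0.97 in ESC and 0.81 in EpiLC (adjusted p of the difference 0.000544). Irak3, a brake on Toll-like receptor signalling, changed by -0.61 in ESC and 0.45 in EpiLC, and Mapre2, which binds microtubule ends, by 0.63 and -0.32. For other genes the difference was not called. Sct changed by 1.92 in ESC and 1.48 in EpiLC (adjusted p of the difference 0.472), Nanos3 by 1.25 and 1.27 (0.985), Tfap2c by 0.98 and 1.53 (0.264), and Slc7a3 by -0.91 and -0.73 (0.646). A p that misses the threshold does not show that these changes were equal. For Sct the difference was 0.44 with an SE of 0.28.

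**Figure D5:**
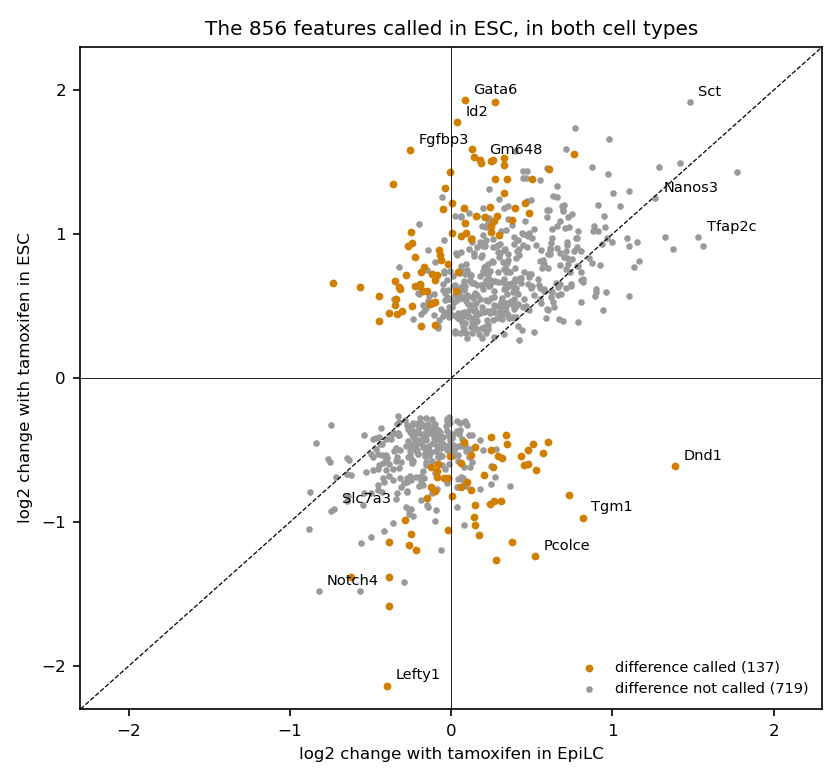
Log2 change with tamoxifen in ESC against that in EpiLC for the 856 features called in ESC, orange where the difference was called (137) and grey where it was not (719). Gata6, Id2 and Fgfbp3 lie near 0 on the EpiLC axis at 0.08, 0.04 and -0.26, Sct lies at 1.92 in ESC and 1.48 in EpiLC, and Dnd1 and Tgm1 lie at positive EpiLC and negative ESC changes.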

How the data were processed

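RNA of 12 mouse samples in 4 groups of 3 was labelled with biotin and read on 19 Illumina bead arrays in 2 rounds of hybridization. The deposited table holds, per the file headers, an intensity per probe and array that the authors did not normalize and a detection p-value for each, for 25697 probes. A second table of the authors' normalized log2 values served as an alternative, and limma is the tool given in the submitters' processing notes. Intensities were background-corrected from the detection p-values (normexp, offset 16), quantile-normalized over all arrays and put on the log2 scale with limma 3.58.1 in R 4.3.3. A fit of sample plus round gave 1 value per sample. A probe was tested if 3 or more of the 19 arrays detected it (p under 0.01), and each symbol was represented by its probe of highest mean, giving 9422 features. limma's lmFit and eBayes were run on the 12 samples in 4 groups with Benjamini-Hochberg adjustment over all features, at 0.05. The number of arrays limits the precision, and an exact permutation test of 3 against 3 cannot go below 0.1. Tests were tried on simulated data.

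Same-numbered samples deviated together from their group means (r of 0.398, 0.371 and 0.471 in ESC and 0.547, 0.567 and 0.497 in EpiLC). The main fit held no term for this pairing, and all SEs and adjusted p-values not marked as the block's come from it. Only the block took the labels' numbers to pair the samples, and it called 2039 features beside 856. Named genes were the 16 largest rises and falls, the 4 most intense called genes per direction, up to 4 genes per list with the smallest p, genes detected in 1 group alone, and up to 8 genes per direction with the smallest p of the difference from EpiLC. A subset is named, with Foxd3, and genes of adjacent blocks and the promoter motif were chosen after their values were seen. The genes and lists were chosen with earlier results of these data known. Alternatives were the block, other scalings, background corrections and filters, each round alone, array weights and leaving out each sample.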

Additional observations from a re-analysis of the deposited data

Results flagged for a closer look

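For 39 of the 90 named genes the tamoxifen effect in ESC differed from that in EpiLC by the interaction test of limma (adjusted p under 0.05). Many of these genes were named for a small p of this very test or for a large ESC change. Their number is therefore no evidence of a difference between the cell types. Over all features the share was 2.59%, and among those called in ESC it was 16%. Values are the log2 change in ESC minus the log2 change in EpiLC. Among genes higher in ESC, the difference was 1.85 for Gata6, 1.84 for Fgfbp3, 1.74 for Id2, 1.71 for Eef1a2, 1.64 for Rgcc, 1.46 for Pmaip1, 1.4 for Gpnmb and 1.36 for Hsd17b1. It was 1.33 for Gm648, 1.27 for Slit2, 1.26 for Bbs7, 1.25 for Tdpoz4, 1.2 for Plch2, 1.15 for Pramel39, 1.11 for Npy and Dmkn and 1.04 for Pramel37. Smaller differences were 0.96 for Mapre2 and Cmtm5, 0.88 for Notch3, 0.8 for Fas, 0.72 for Ddit4l and 0.65 for Gja1. Among genes lower in ESC, it was -2 for Dnd1, -1.78 for Tgm1, -1.76 for Pcolce, -1.74 for Lefty1, -1.2 for Slc47a1, -1.06 for Irak3, -1.03 for Hsd17b14 and -1 for Bahcc1. It was -0.9 for Lefty2 and Klk1b27, -0.83 for Sulf1, -0.76 for Pla2g1b, -0.75 for Gfpt2, -0.68 for Dtx3, -0.56 for Ccnd1 and -0.53 for Bcat2. Genes with undetected arrays in either group (Id2, Eef1a2, Plch2, Gm648, Npy, Dmkn, Cmtm5, Fas and Klk1b27 among them) have differences whose size depends on the background.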

How the results depend on the processing

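The same-numbered samples as a block gave 2039 calls, 1135 higher and 904 lower, and 1147 called differences between ESC and EpiLC. Of the named genes it changed the call of Hes1 alone. List counts that it moved by 1.5 times or less stand here: with the block the cyclin D list had 3 higher and 1 lower, the neuroectoderm list 0 and 3, the junction list 5 and 1 and the homeobox list 0 and 5. Equal medians moved the median of all features to 0.09 and gave 794 higher (86.9% of the calls, beside 61.4%) and 120 lower, and kept 633 of the 856. The authors' normalized table gave 397 called differences. Round 1 alone gave 390 calls, 281 higher and 109 lower, and 61 differences, and array weights gave 1448 calls, 813 higher and 635 lower. Leaving out 1 sample gave 523 to 579 calls, 343 to 392 higher, 171 to 197 lower and 109 to 159 differences. Folds of dim genes were the most open to the background: for 28 of 88 named called genes the size moved by over 1.5 times without background correction, and for 27 in the authors' table. No named gene reversed its direction under any of these alternatives. Round 2 holds no EpiLC ethanol arrays, so the difference has no value there, nor has it for ESC arrays alone. Fst lost its call without background correction (adjusted p = 0.0984), in the authors' table (0.0909) and in either round alone (0.0713 and 0.0625), and Ccng1 in round 1 alone (0.134). Dim genes are limited by background: 120 of the 526 higher and 33 of the 330 lower features had a group mean under the lowest detected signal.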
